A study of Bos taurus with 8 samples.

Results

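IL15 and IL18 are the genes described here. Their members were taken as every probe that the scanner files name IL15 or IL18, which gave 1 probe for each gene and 2 genes of 12229 tested. Both genes had been singled out because their level was lower on the gp120 arrays than on the control arrays. The difference between gp120 and control is therefore given as a description without a test, and so is the difference between TAT and gp120, which uses the same gp120 arrays. The difference between TAT and control was tested, although it shares both control arrays with the difference that chose the genes.

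The cells came from bovine eyeballs and were labelled Müller glia, the radial glial cells that span the retina, in primary culture in DMEM for 18 to 21 days. The control group had 2 arrays (Control A and B). The TAT group had 3 arrays (A, B and C) after 24 h with HIV-1 TAT, the viral activator of transcription, at 100 ng/ml, and the gp120 group had 3 arrays (A, B and C) after 24 h with HIV-1 gp120, the envelope glycoprotein, at 60 ng/ml. Groups follow the sample titles, because the treatment text is the same for all 8 samples and names both proteins, and the extraction text speaks of astrocytes. The labels do not say whether a letter marks a culture or an animal, nor whether cells of several animals were pooled, so each p-value reflects no more than the scatter among these samples, which may be technical.

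Interleukin 15 is a cytokine of the common gamma chain family. It is usually carried to the cell surface on IL15RA and presented to neighbouring lymphocytes that bear IL2RB and IL2RG, which signal through JAK1, JAK3 and STAT5. Interleukin 18 belongs to the IL1 family: it is made as an inactive precursor, cut by caspase 1 in the inflammasome, held in check by IL18BP and sensed through IL18R1 and IL18RAP, which signal through MYD88, IRAK kinases and TRAF6. Both cytokines act on natural killer and T cells and favour interferon gamma, and both are made by macrophages, microglia and other tissue cells.

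The 2 probes are shown because each gene's level rests on this single sequence, written 5′ to 3′ as the array carries it. Coordinates refer to HGSC Btau_3.1, the genome build that the scanner files name.
IL15 probe: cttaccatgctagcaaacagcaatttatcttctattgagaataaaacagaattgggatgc
IL18 probe: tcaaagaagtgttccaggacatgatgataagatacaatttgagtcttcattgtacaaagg
The IL15 probe starts at base 339 of the transcript NM_174090 and lies on chr17:17109847-17113345, minus strand. That interval is 3499 bases wide for a probe of 60 bases, so the probe's bases are split by 3439 genomic bases and lie in the spliced transcript. The IL18 probe starts at base 562 of NM_174091 and lies on chr15:20673468-20673527, plus strand, in 1 unbroken stretch of 60 bases. Each holds 21 G or C bases of 60 (35%), which is the 5th percentile of the 51282 probes, whose median is 45%. Exons and untranslated regions were not assigned, since no gene models of this build were used.

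IL15 was dim on every array. Its processed signal, the spot's brightness after the scanner software had removed background, with the scanner's own error, was 17.9 ± 2.09 in Control A and 13.1 ± 1.68 in Control B. With TAT it was 13.8 ± 1.81 in A, 13.2 ± 1.74 in B and 7.16 ± 1.27 in C. With gp120 it was 7.64 ± 1.38 in A, 6.13 ± 1.94 in B and 7.61 ± 2.04 in C. Control A was the brightest array and gp120 B the dimmest, and TAT C lay among the gp120 arrays. The spot was called well above background on both control arrays, on all 3 TAT arrays and on gp120 A, but not on gp120 B and C. Between 38.8% and 54.4% of an array's spots were dimmer than IL15, against 82.5% to 92.2% for IL18.

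Levels below are log2 processed signal minus the log2 of the array's 75th percentile, so 0 is the level that 25% of the spots exceed. IL15 stood at -3.03 and -3.83 in Control A and B, at -3.70, -4.16 and -4.56 in TAT A, B and C, and at -4.34, -5.05 and -4.72 in gp120 A, B and C. All gp120 arrays lay below both control arrays, which was so for 7.47% of all genes, while the TAT arrays overlapped both other groups. All TAT arrays lay below both control arrays for neither gene, and for 9% of all genes. The mean was -3.43 ± 0.56 in control (SD, n = 2), -4.14 ± 0.43 with TAT (SD, n = 3) and -4.70 ± 0.36 with gp120 (SD, n = 3). The order was thus control, TAT, gp120, and neighbouring groups overlapped: TAT A lay above Control B, and TAT C below gp120 A.

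IL18 was bright and was called well above background on all 8 arrays. Its processed signal was 1176 in Control A and 859 in Control B. With TAT it was 885, 759 and 820 in A, B and C, and with gp120 it was 749, 448 and 582 in A, B and C. The scanner error was 10% of the signal on each array. As log2 levels, IL18 stood at 3.0 and 2.21 in Control A and B, at 2.30, 1.68 and 2.28 in TAT A, B and C, and at 2.28, 1.15 and 1.53 in gp120 A, B and C. Control A was the highest, gp120 B and C were the lowest, and gp120 A (2.28) lay above Control B (2.21), so the groups overlapped. The mean was 2.60 ± 0.56 in control (SD, n = 2), 2.09 ± 0.35 with TAT (SD, n = 3) and 1.65 ± 0.57 with gp120 (SD, n = 3), the same order as for IL15, and neighbouring groups did not differ beyond their spread.

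**Figure D1:**
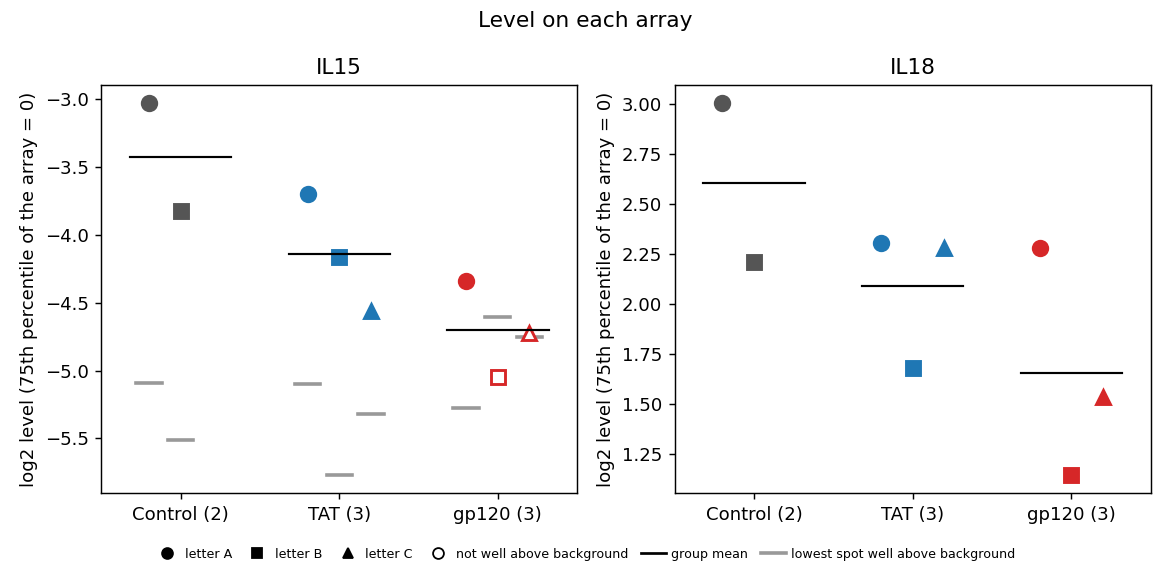
Level of IL15 (left) and IL18 (right) on each array, as log2 processed signal relative to the array's 75th percentile, by group, with the number of arrays in brackets. Marker shapes give the letter, black lines group means, open markers spots not well above background and grey ticks the dimmest spot well above background on that array (IL15 panel). All gp120 arrays lie below both controls for IL15, while for IL18 gp120 A (2.28) lies above Control B (2.21).

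The level of IL15 was 1.27 lower with gp120 than in control on the log2 scale (SE 0.36), a mean 2.42-fold lower. That fold rests on the signals as read, although the IL15 spot was not well above background on 2 of the 3 gp120 arrays. With the gp120 B spot raised to the dimmest level well above background on its array, the difference was -1.13. The gp120 C spot (-4.72) already lay above that level on its own array (-4.75) and stayed as read. With another background correction (normexp) the difference was -0.26. IL18 was 0.95 lower (SE 0.40), a mean 1.93-fold lower. Among all genes, 1.06% had a lower difference than IL15 as read and 2.53% a lower one than IL18, and the median gene stood at -0.01. These values chose the genes and carry no test. For the comparison as a whole, limma called 0 of 12229 genes at an adjusted p of 0.05 (0%), while 343 genes (2.8%) had an unadjusted p under 0.05. A limma fit that took the letter as a block also called 0, and gave 725 genes (5.93%) below that unadjusted p. Leaving out Control A left differences of -0.88 for IL15 and -0.56 for IL18, and leaving out Control B gave -1.67 and -1.35.

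Arrays that share a letter can be set side by side. In letter A, gp120 minus control was -1.31 for IL15 and -0.72 for IL18. In letter B it was -1.22 and -1.06. Both genes were thus lower with gp120 in both letters, as were 26.6% of all genes. The 2 pairs are not alike, since Control A and gp120 A share a scan and a slide row (both described below). Control B and gp120 B differ in scan and in row, so pair B also holds those differences. TAT and gp120 share both in letter A but differ in scan in B and C. gp120 minus TAT was -0.64, -0.89 and -0.16 for IL15 in A, B and C, and -0.03, -0.53 and -0.75 for IL18. Both genes were below TAT in all 3 letters, as were 13.5% of all genes, but the pair A of IL18 and the pair C of IL15 differed by little.

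The difference between TAT and control did not pass the test for either gene. IL15 was at -0.71 (SE 0.36; 95% interval -1.56 to 0.14; limma unadjusted p = 0.088, adjusted p = 0.999). IL18 was at -0.52 (SE 0.40; interval -1.46 to 0.42; unadjusted p = 0.238, adjusted p = 0.999). By limma, 0 of 12229 genes (0%) passed this comparison, and 167 (1.37%) had an unadjusted p under 0.05. Within letters, TAT minus control was -0.67 in A and -0.33 in B for IL15, and -0.70 and -0.53 for IL18. Both genes were lower with TAT in both letters, as were 31.1% of all genes. The same controls entered the choice of the genes, so controls that stood high would lower these differences too. The signs and p-values for TAT are thus not independent of that choice. Without Control A the differences over groups were -0.31 and -0.12. With the letter as a block in limma, the differences were -0.60 (SE 0.21, unadjusted p = 0.0295) for IL15 and -0.53 (SE 0.21, unadjusted p = 0.0419) for IL18, both with an adjusted p of 0.942. That block called 0 of 12229 genes, and 589 (4.82%) had an unadjusted p under 0.05. Both controls and TAT A lay in row 1 of the slide, and TAT B and C in row 2. With the slide row as a block, TAT minus control was -0.31 (SE 0.34) for IL15 and -0.10 (SE 0.40) for IL18. Within row 1, which held TAT A alone of its group, it was -0.27 and -0.30. TAT minus gp120 was 0.56 (SE 0.32) for IL15 and 0.44 (SE 0.36) for IL18, given without a test.

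Scan and slide position moved with the gp120 values. gp120 B and C were read in scan 1 and the other 6 arrays in scan 2. The background subtracted from the IL15 spot was 31.9 and 29.7 on gp120 B and C and 20.5 to 21.3 on the other arrays. Before subtraction, the IL15 spots of gp120 B and C had a brightness of 37.95 and 36.9, between those of the controls (38.3 and 33.0), while gp120 A had 28.1 and TAT C 27.9. The raw IL15 spot on gp120 B and C was thus not dimmer than in Control B, and their lower processed signal came with a larger subtraction. Less the local background around the spot, the brightness was 24.3 in Control A, 18.0 in Control B, 13.1 in gp120 A, 18.95 in gp120 B and 18.9 in gp120 C. None of these brightnesses is scaled to its array. The array's 75th percentile was 147 in Control A, 186 in Control B, 203 in gp120 B and 201 in gp120 C. The order of gp120 B and C against Control B therefore holds only for the unscaled values. The negative-control spots varied more in scan 1 as well, with an SD of 1.73 and 1.61 against 0.873 to 1.01 in scan 2. The dimmest spot well above background stood at -4.61 on gp120 B and -4.75 on gp120 C, close to IL15 itself (-5.05 and -4.72). The part of the scan in the IL15 difference was not tested beyond the within-scan values that follow.

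**Figure D2:**
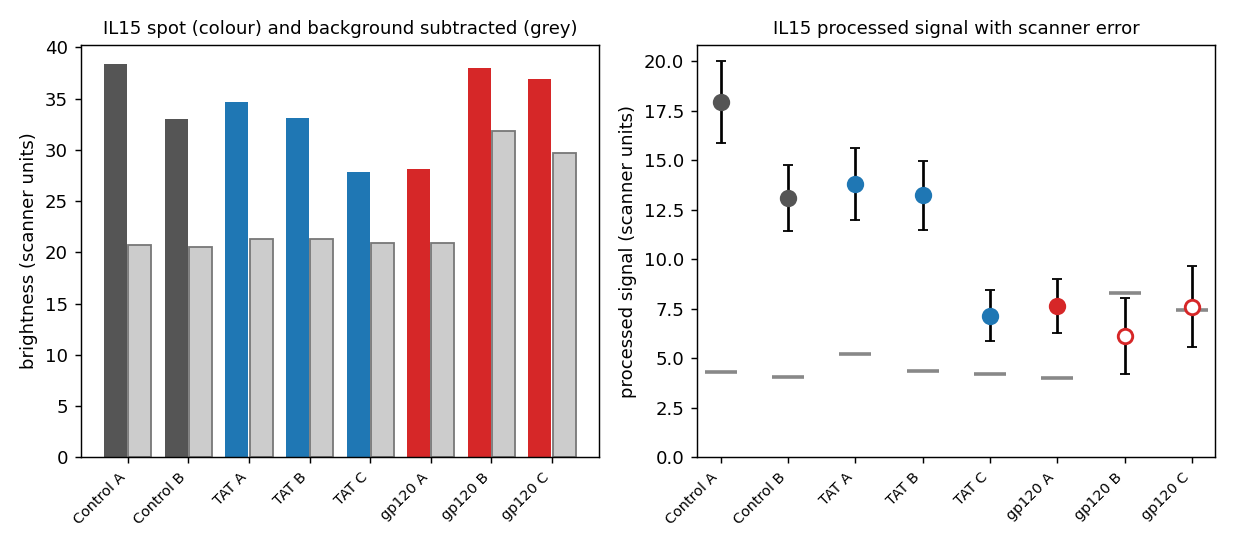
Left, brightness of the IL15 spot (coloured bars) and the background the scanner software subtracted from it (grey bars) on each array, in scanner units. Right, the processed signal that resulted, with the scanner's own error as bars and the dimmest spot well above background on the same array as a grey tick; open circles are spots not well above background. gp120 B and C have spots of 37.95 and 36.9, between those of the controls, with 31.9 and 29.7 subtracted.

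Within scan 2, which holds both controls but gp120 A alone, gp120 minus control was -0.91 for IL15 and -0.33 for IL18. The IL18 value is smaller than its SE of 0.46. With the slide row as a block the differences were -0.87 for IL15 and -0.53 for IL18. Row 1 held both controls, TAT A and gp120 A, and gave -0.91 and -0.33, the same arrays of gp120 and control as scan 2. With only gp120 A in that scan and row, scan and array cannot be told apart. For IL18 the background was a small share of the spot. Its brightness before subtraction was 457 and 615 on gp120 B and C, 678 on gp120 A and 781 to 1200 on the control and TAT arrays. The 3 gp120 spots were thus the dimmest as read, but these values are not scaled to the array. The array's 75th percentile ran from 147 in Control A to 237 in TAT B. On the scaled level gp120 A (2.28) lay above Control B (2.21) and TAT B (1.68).

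The IL15 difference was smaller under another background correction. With a model-based correction (normexp, on the mean spot signal and the local background) gp120 minus control was -0.26 for IL15 and TAT minus control -0.28. IL15 then stood at -1.47 and -1.84 in Control A and B, at -1.76, -2.04 and -1.96 in gp120 A, B and C, and lowest at -2.13 in TAT B. gp120 A thus lay above Control B, and the groups overlapped. That correction uses the local background and adds an offset of 50 to every spot, which narrows log2 differences of dim spots; how much each of these moved IL15 was not tested. With spots below the dimmest level well above background raised to it, which for IL15 moved gp120 B alone, the IL15 difference was -1.13.

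**Figure D3:**
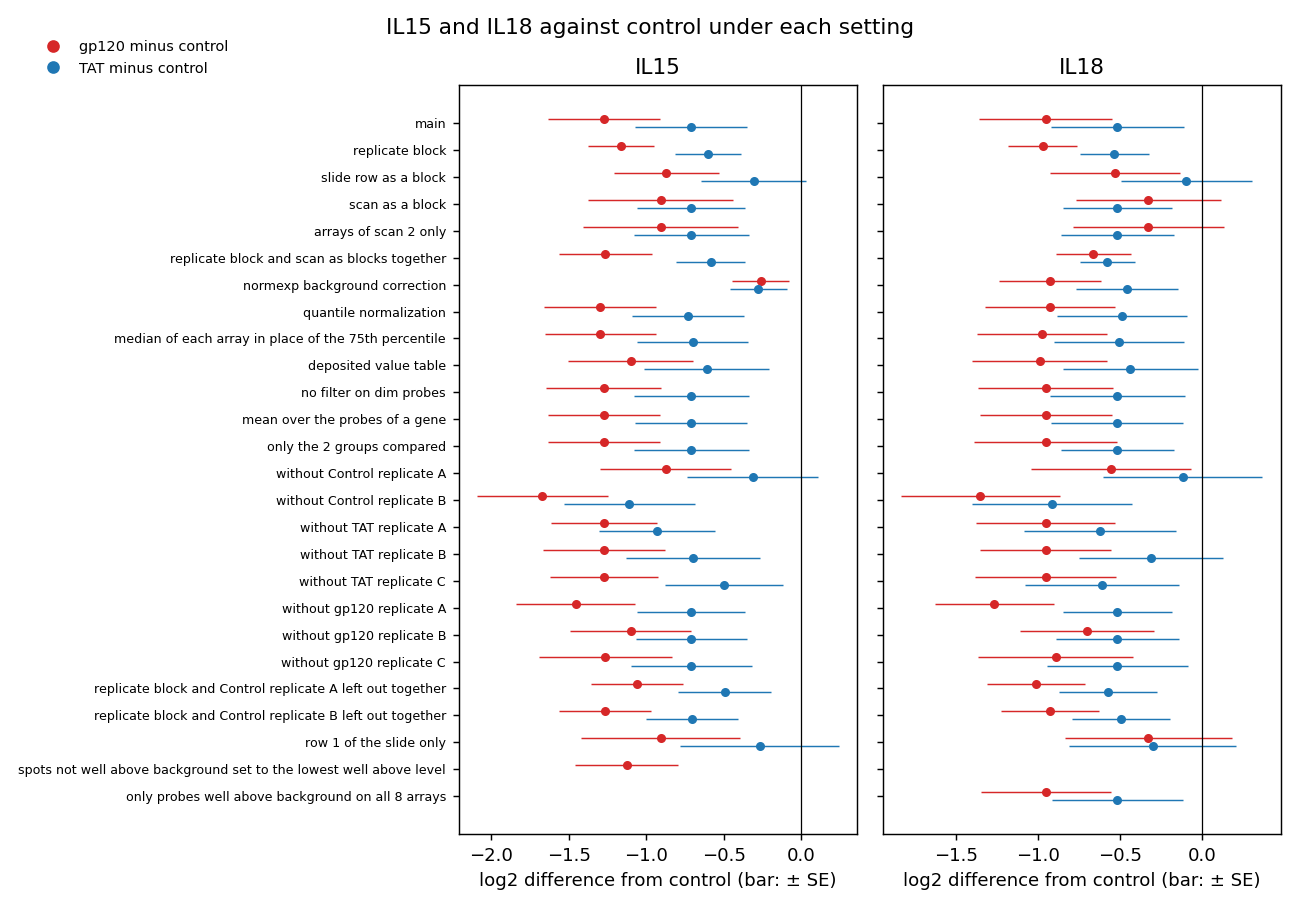
Difference from control of IL15 (left) and IL18 (right) on the log2 scale under each setting, with gp120 in red and TAT in blue and bars for ± SE. Every difference lies below 0, but some settings could not change it. The gp120 value of IL15 is nearest 0 with normexp (-0.26) and that of IL18 within scan 2 or row 1 (-0.33).

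Levels also moved with the letter. Averaged over groups, IL18 was lower in B than in A by 0.85 and in C than in A by 0.37 on the log2 scale, and limma's F test between letters gave an adjusted p of 0.0485. For IL15 the differences were -0.65 for B and -0.66 for C, with an adjusted p of 0.0781. Between letters 2168 genes passed (17.7%), so that IL18 is among many. Its adjusted p ran from 0.019 to 0.232 over 18 other settings and stayed under 0.05 in 4 of them. Letter A lay in row 1 only and letter C in row 2 only, and the arrays of scan 1 were in B and C. Letter, row and scan thus overlap in part. With the slide row as a block, that F test gave IL18 an adjusted p of 0.226, and 137 genes passed.

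The receptor chain that presents IL15 overlapped between groups. IL15RA stood at 0.06 (SE 0.50) with gp120 against control on its brightest probe and at 0.25 on its other probe that passed the filter. A dim probe of IL15RA, well above background on 4 of 8 arrays, stood at -0.62. IL2RG, the common gamma chain, was at -0.26 (SE 0.55), with levels from 0.23 to 1.81 in gp120 and of 0.92 and 1.35 in control. IL2RB, which a cell needs to respond to IL15, was well above background on 0 arrays. Of the kinases and factors downstream, JAK3 stood at 0.43 (SE 0.38), STAT3 at 0.34 (SE 0.26) on its brightest probe, JAK1 at 0.17 (SE 0.19) on its brightest, STAT5A at 0.05 (SE 0.35) and STAT5B at -0.12 (SE 0.35). The other 3 JAK1 probes that passed the filter gave -0.30, -0.30 and -0.98, and those of STAT3 -0.58, 0.08 and 0.55. A further STAT5A probe, dimmer than the one given, stood at 0.55. IL2RG stood at 0.68 within scan 2. Of 8 listed genes for IL15 reception and signalling, 7 were tested and 2 were lower and 5 higher with gp120, with a median of 0.06 and 0 past the test. Of the other common gamma chain cytokines IL7 alone was tested, and IL2, IL4, IL9 and IL21 were well above background on 0 arrays. It stood at -0.26 (SE 0.21) with all gp120 arrays (-1.25, -1.03 and -1.12) below the controls (-1.0 and -0.75), but at 0.60 in the deposited value table.

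The inhibitor and the signalling genes of IL18 stood on both sides of 0, and none passed the test. IL18BP, the soluble inhibitor that binds mature IL18, had levels of 2.44 and 1.12 in Control A and B, of 1.67, 0.27 and 0.59 in TAT A, B and C, and of 1.92, 0.91 and 0.97 in gp120 A, B and C. In each group letter A was the highest (adjusted p between letters 0.00882 by limma's F test), and the groups overlapped. Its difference from control was -0.51 (SE 0.56) with gp120 and -0.94 (SE 0.56) with TAT. The gp120 value of IL18BP was 0.14 within scan 2 and 0.23 with the slide row as a block. TRAF6, a ubiquitin ligase downstream of the receptor, stood at -0.37 (SE 0.25), its gp120 arrays (0.28, 0.31 and 0.25) all below the controls (0.44 and 0.85). MYD88, the receptor adaptor, was at 0.01 (SE 0.29), IRAK1 at -0.22 (SE 0.19) and IRAK4 at 0.28 (SE 0.34), with IRAK4 at -0.21 within scan 2. Their other probes that passed the filter gave 0.48 and 0.02 for MYD88, -0.52 for IRAK1 and -0.17 for IRAK4. IL18RAP, the signalling chain of the receptor, was well above background on 0 arrays, and IL18R1 had no probe named on this design. Of the 7 listed genes 5 were tested, 3 lower and 2 higher with gp120, median -0.22.

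The tested genes of the machinery that cuts IL18 were well above background on all 8 arrays, and none passed the test. CASP1, the protease that matures IL18, stood at -0.19 (SE 0.26) with gp120 and -0.41 (SE 0.26) with TAT. CASP4 was at -0.24 (SE 0.27), NLRP3 at -0.05 (SE 0.21), NLRC4 at 0.42 (SE 0.51) and GSDMD, the pore former, at -0.13 (SE 0.29) on its brightest probe. The other GSDMD probes that passed the filter gave 0.31 and 0.19. PYCARD, the adaptor that links sensor and caspase, was at 0.21 (SE 0.20), with gp120 arrays of 4.43, 4.4 and 4.69 all above controls of 4.28 and 4.31. Of 8 listed genes 6 were tested and 4 were lower with gp120, median -0.09, and 5 were lower with TAT, median -0.25.

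The other IL1 family cytokines that could be tested, IL1A, IL1B, IL1RN and IL36A, were all lower with gp120 (4 of 4, median -0.76), none past the test. IL1B, the other main product of caspase 1, shows how the letter entered. It stood at 3.28 in Control A, 4.2 in TAT A and 3.03 in gp120 A, and between -0.08 and 0.80 on the 5 arrays of letters B and C (adjusted p between letters 0.00235). Its difference with gp120 was -1.03 (SE 1.44), with the letter as a block -0.42, and 0.99 within scan 2. IL1RN, the receptor antagonist, was at -0.83 (SE 0.81) and 0.17 within scan 2. IL36A was at -0.54 (SE 1.72) and 1.14 within scan 2. IL1A was at -0.68 (SE 0.67) but at 0.31 in the deposited value table and at 0.12 with the slide row as a block. IL33, IL36B, IL36RN and IL37 were well above background on 0 arrays. Interferon gamma, the product that IL15 and IL18 favour in lymphocytes, was well above background on 0 arrays, as was IL12B. The 3 tested genes of the IL12 family were IL27 at -0.42 (SE 0.31), EBI3 at 0.12 (SE 0.80) and IL23A at 0.02 (SE 0.53).

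Among 13 factors listed as regulators of IL15 or IL18 transcription, all tested, 7 were lower and 6 higher with gp120, median -0.09. IRF2 stood lowest, at -1.16 (SE 0.46). Its brightest probe read -0.43 and -0.78 in Control A and B, -0.80 in gp120 A, and -2.50 and -2.0 in gp120 B and C. Only the arrays of scan 1 stood clearly apart, the difference within scan 2 was -0.19, and a further IRF2 probe gave -0.31. IRF1, which drives IL15 in many cells, was at -0.54 (SE 0.50) and IRF7 at -0.63 (SE 0.47). NFKB1 was at -0.50 (SE 0.33) on its brightest probe and at 0.31 on its other. On their brightest probes RELA was at 0.14 (SE 0.20), and SPI1, a factor of myeloid cells, at 0.00 (SE 0.23). Further probes that passed the filter gave 0.81, 0.41 and 0.39 for RELA and 0.40 and 0.07 for SPI1. Of the receptors that feed these factors, IFNAR1 was at 0.73 (SE 0.32), with gp120 arrays at -1.64, -1.28 and -0.72 above controls at -2.09 and -1.79. Within scan 2 it was at 0.29. TLR4 was at -0.27 (SE 0.52) and at 0.20 within scan 2. On their brightest probes TLR2 was at -0.43 (SE 0.40) and TLR3 at 0.23 (SE 0.23). Their other probes that passed the filter gave -0.31, 0.33 and 0.29 for TLR2 and -0.64 for TLR3.

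Over all 8 lists, 46 of 64 genes were tested. With gp120, 25 were lower and 21 higher, with a median of -0.07, beside 51.5% of all genes lower and a median of -0.01. With TAT, 34 were lower and 12 higher, with a median of -0.08, beside 54.5% and -0.03. By limma 0 of the 46 passed in either comparison, with or without the letter as a block, against 0% of all genes. All gp120 arrays lay below both controls for 5 of the 46 (IL7, TRAF6, IL1A, IRF2 and, narrowly, NFKB1, at 2.0913 in gp120 C against 2.0915 in Control A) and above for 3 (PYCARD, IRF3 and IFNAR1), beside 7.47% and 5.5% of all genes. Within scan 2 the gp120 difference had the opposite sign for 17 of the 46, and of the 33 genes with more than 1 kept probe 11 had probes of both signs. Leaving out Control A changed the counts of lower genes to 16 with gp120 and 19 with TAT.

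**Figure D4:**
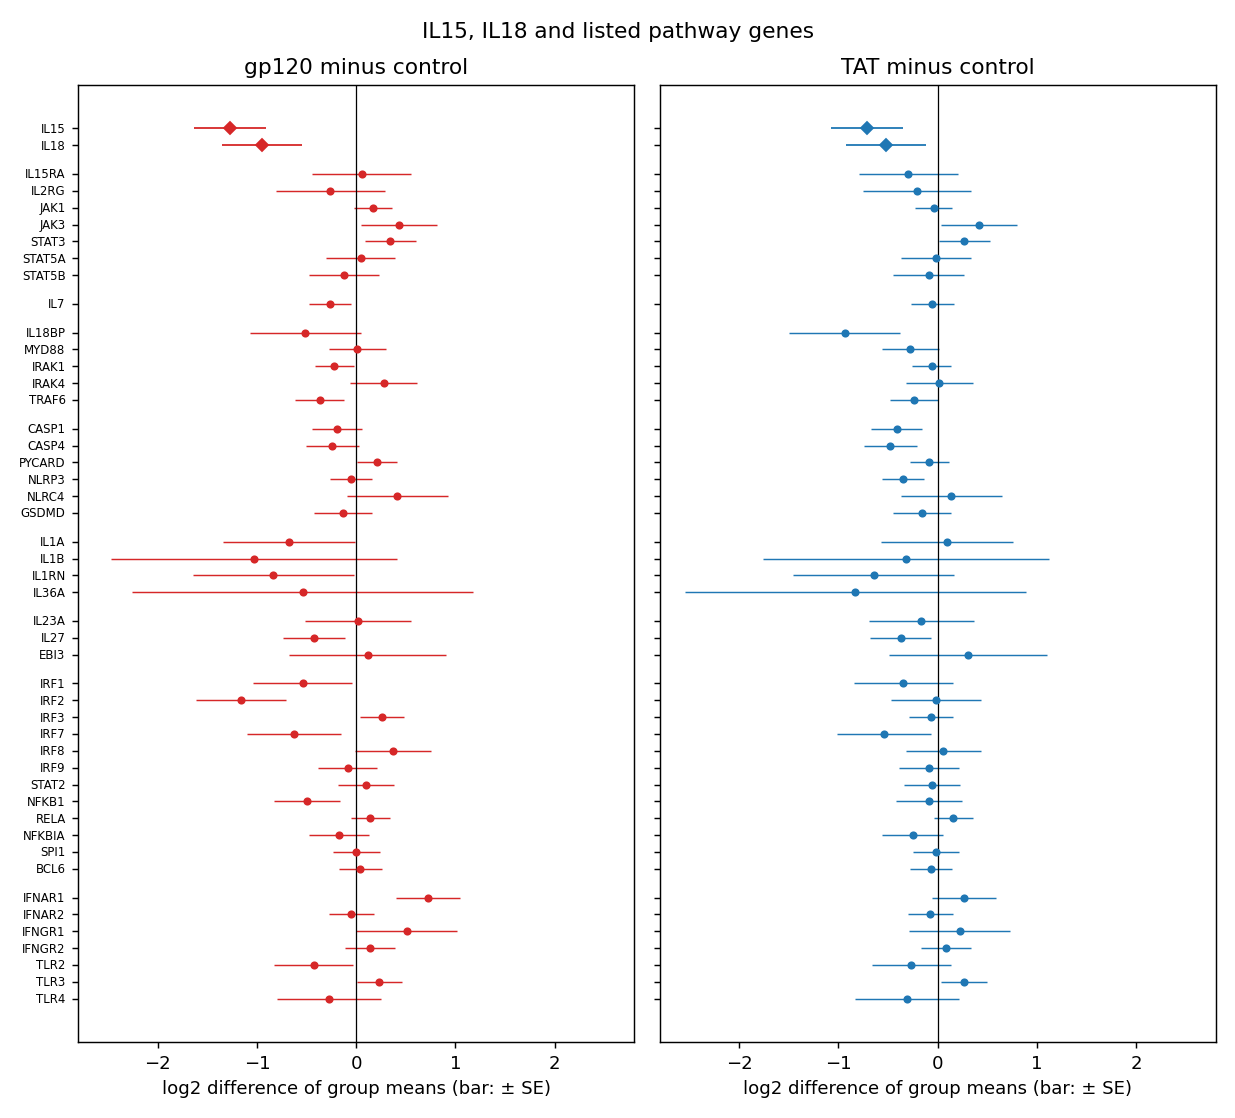
Difference of group means on the log2 scale, gp120 minus control (left, red) and TAT minus control (right, blue), with bars for ± SE, for IL15 and IL18 (diamonds) and the 46 listed genes tested but 1 (circles), grouped by role. IL15 is at -1.27 and IRF2 at -1.16, an order that turns when the IL15 spot of gp120 B is raised to the dimmest level well above background (-1.13). The listed genes spread on both sides of 0 (25 lower and 21 higher among all 46).

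The levels of IL15 and IL18 ran alike over the 8 arrays, with a Pearson r of 0.851, and of 0.847 after each letter's mean was subtracted. Both genes were chosen for being lower on the same gp120 arrays than on the same controls, and the arrays share a slide and, in part, a scan, so r draws on values that the choice used and is only a description. The genes most like IL15 were DRG2 (r = 0.975), RBMS1 and GNG5 (0.969 each), ZBTB26 (0.962, well above background on 4 of 8 arrays) and MEF2A (0.960). After subtraction of the letter means they were ERLEC1 (0.994), GNG5 (0.987), WDR45B (0.982), ADGRE5 (0.973) and ASB9 (0.972). The genes most like IL18 were UBE2H (0.981), GSK3B (0.968), DCP2 (0.966), ILRUN (0.962) and MIR2340 (0.961), and after subtraction SLC30A6 (0.996), SNX9 (0.992), QTRT1 (0.988), JMJD1C (0.987) and UBE2H (0.986). Likeness to these members selects that order, and each of these genes was lower with gp120 than with TAT and lower with TAT than in control, most of them by less than IL15 or IL18. GNG5, for example, stood at -0.34 with gp120 and -0.19 with TAT, and UBE2H at -0.42 and -0.26.

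Markers of cells that make IL15 and IL18 were abundant. All 17 listed genes of microglia and macrophages were tested, 16 of them well above background on all 8 arrays, among them CD68, CD14, CSF1R, AIF1 and PTPRC. With gp120, 10 were lower and 7 higher (median -0.07). Their summed level was 9.11 to 9.65 in control, 9.28 to 9.42 with TAT and 9.29 to 9.48 with gp120, so the groups overlapped. Of 15 Müller glia markers 10 were tested, including GLUL, SLC1A3, VIM and AQP4, with summed levels of 9.13 to 9.64 in control and 9.38 to 9.68 with gp120. RLBP1, a defining Müller glia gene, was well above background on 2 arrays and CA14 on 0. Of 11 T and NK cell markers 7 were tested, 5 of them well above background on all 8 arrays. Among these, NKG7 ran from 4.25 to 7.11 and CD3D from 2.58 to 3.28, while CD3E, CD3G and NCR1 were well above background on 0 arrays. The summed level of this list was 4.94 to 6.35 in control, 4.94 to 6.55 with TAT and 5.34 to 7.20 with gp120. NKG7, the brightest of them, weighs most in that sum and differed between letters (adjusted p 0.00466 by limma's F test). The mean level of the list was -0.87 to -0.59 in control, -1.48 to -0.58 with TAT and -0.93 to -0.47 with gp120. Of 10 fibroblast and stroma markers 9 were tested, and all 9 were higher with TAT (median 0.83) and 8 with gp120 (median 0.23). Of all 12229 genes, 5560 were higher with TAT and 5935 with gp120. Their summed level was 7.32 to 7.36 in control, 7.75 to 8.23 with TAT and 7.30 to 7.65 with gp120. Of the 6 markers of pericytes and smooth muscle, all tested, 5 were higher with TAT (median 0.60) and 5 with gp120 (median 0.45), with summed levels of 7.01 to 8.06 in control, 7.61 to 8.46 with TAT and 7.34 to 8.79 with gp120. By limma none of these markers passed the test, and their part in the IL15 and IL18 values was not tested. In bulk RNA, fewer cells of a type and less RNA per cell cannot be told apart, and which cells gave the IL15 and IL18 signal was not tested.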

How the data were processed

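Total RNA of 8 samples was labelled with Cy3 and hybridised to 8 arrays of an Agilent bovine design on 1 slide. The intensity values are those the authors deposited as scanner output, made with Agilent Feature Extraction 11.5.1.1 per the file headers, which subtracted background and detrended each array. The deposited table of log2 values, by gene name, was used as an alternative only. Its column medians lay between -3.33 and -3.18. Each column correlated best with its own array's scanner levels (r of 0.993 to 0.999), so scale and direction match and genes were not centred. After a shift per array, 98.0% and 97.8% of values lay within 0.02 of the scanner levels for gp120 B and C, but 8.48% to 15.2% for the other 6 arrays, and the processing behind those 6 columns is unknown.

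IL15, IL18 and the gene lists were chosen with earlier results of these data known. Levels are log2 processed signals less the log2 of the 75th percentile of their array. Control spots and 4 to 37 outlier spots per array were left out, repeated spots were averaged, and 0 spots were saturated. Of 61657 spots per array, 55.5% to 64.6% were well above background. The filter kept 31591 of 51282 probes, those well above background on all arrays of any group, and 31546 of them had a value on each array. Names came from the bovine RefSeq gene table (ARS-UCD2.0) by accession (28919), symbol (6484) or synonym (160), 2 by their description, 573 kept the file's name and 15144 stayed unnamed. For the 7135 genes with more than 1 kept probe the brightest was taken, which left 12229 genes; 7124 kept probes without a name were not counted. The number of arrays limits the precision.

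Differences were fitted in R 4.3.3 by limma 3.58.1 (lmFit, then eBayes, over the 8 arrays together, no block, Benjamini-Hochberg over 12229 genes, threshold 0.05, two-sided), tested on simulated data. Files were read with Python 3.11.15 (pandas 2.3.3, numpy 2.4.6) and, in R, data.table (version 1.17.8), and plots were made with matplotlib 3.10.9. Genes named are IL15, IL18, the 64 genes of 8 pathway lists, the 5 genes most like each member and the listed cell type markers; 1 listed gene is counted but not reported here. The pairing by letter was checked on deviations from the group means, which correlated at 0.372 to 0.74 in the 7 same-letter pairs and at -0.65 to 0.415 in the 14 others. Between TAT and gp120 arrays, same-letter pairs stood at 0.476 to 0.740 and the others at -0.588 to -0.0704. Control B correlated at 0.402 with TAT B but 0.415 with TAT C, and at 0.372 with gp120 B but 0.387 with gp120 C. Since there are 2 controls, their deviations mirror each other, and the check cannot show that Control B pairs with letter B rather than C. The alternatives were the letter, slide row or scan as a block, normexp background correction (offset 50), quantile or median scaling, the deposited value table, other filters and probe rules, and each array left out.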

Additional observations from a re-analysis of the deposited data

How the results depend on the processing

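The differences of IL15 and IL18 from control were below 0 under all 24 other settings for gp120, and for TAT under all 23 (IL15) and 24 (IL18), where no adjusted p passed 0.05 (0.706 to 1.0 for IL15 and 0.766 to 1.0 for IL18). Some of these settings could not move the values, so the counts do not measure robustness. They include no filter, the mean over probes, only the 2 groups compared, and arrays of the third group left out. For TAT, the settings with scan alone also left the difference as it was. The sign of the gp120 difference had, besides, chosen the genes. With the replicate block, gp120 minus control was -1.16 for IL15 and -0.97 for IL18, and the block changed no call. gp120 minus control moved beyond the spread between arrays with normexp for IL15 (-0.26) and, for IL18, with scan as a block, in scan 2 alone and in row 1 alone (-0.33 each; row 1 was chosen after seeing the data, as were the floor for dim spots and the repeats for letters and lists). Leaving out 1 array gave -1.67 to -0.88 for IL15 and -1.35 to -0.56 for IL18. The count of genes past the threshold, 0 in the main fits, was 4 for gp120 and 4 for TAT with the deposited value table, and 1 (ZNF362) for each without Control A, also with the replicate block. The 4 were SYVN1, SPSB1, NCAPD2 and WDR63 with gp120 and SP1, NRBP2, RMI1 and MON2 with TAT, all named after their values were seen. The count between letters was 137 with slide row as a block, 908 with scan as a block, 171 in scan 2 alone, 801 with the value table, 1059 with no filter, and 559 to 1531 with 1 array left out. Restricting to probes well above background on all 8 arrays gave no value for IL15. The cause of these shifts was not tested; the value table differs from the scanner levels on the arrays of scan 2 far more than on those of scan 1. Signal over background limits IL15, whose spot was not well above it on 2 of 3 gp120 arrays.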
